A study of Cynara cardunculus with 12 samples.

Results

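In callus of the cardoon line L1, 8 of 26505 genes were read at clear levels while the same genes were nearly or wholly unread in the lines L18 and L24 and in wild type (WT) callus. A gene was taken where it had a raw count of at least 30 in all 3 L1 samples and at most 3 in each of the other 9 samples, or the reverse. The rule leaves out 4 runs of gene numbers that hold 4680 genes, and keeping them changed nothing. All 8 genes were high in L1 alone, and 0 genes were at the floor in L1 alone with 30 or more counts everywhere else, so these data gave genes switched on in L1 but none switched off at these limits. The number depends on the unscaled counts: after scaling by library size, 3 genes met the same limits. The counts themselves chose the genes, and their difference between L1 and the other groups is therefore given as a description, with no test.

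The series measured RNA of friable callus, a soft mass of undifferentiated cells induced from leaves of the cardoon genotype Spagnolo (Cynara cardunculus) and grown in the dark. The lines L1, L18 and L24 carry p35S::AtMYB4, the Arabidopsis MYB4 coding sequence behind the constitutive cauliflower mosaic virus 35S promoter. L1 and L24 came from infection with the Agrobacterium strain AGL1 and L18 from infection with EHA105. All 3 lines were kept on phosphinothricin (PPT, 10 mg/L) and cefotaxime (CFX, 200 mg/L) and moved to fresh medium about every 21 days, and WT callus about every 30 days without these agents and at a later round of sub-culture. Each line is 1 transformation event with RNA extracted in triplicate, so replicates measure the spread within a line, and what is particular to L1 cannot be told apart from what belongs to its single transformation event or its own history in culture. An empty-vector line was not analysed here, and the transgene, an Arabidopsis sequence, is not among the counted cardoon genes. In bulk RNA of callus, fewer cells of a type and less RNA per cell cannot be told apart.

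AtMYB4 is a repressor of the R2R3-MYB family, known in Arabidopsis for lowering transcription of phenylpropanoid genes, the pathway that leads to lignin, sinapate esters and flavonoids. The 7 genes of the set that carry a description name a regulator, enzymes, a wall protein and membrane proteins. NAC proteins are plant transcription factors that act in development, in secondary wall formation and in stress. Fe2OG dioxygenases use iron and 2-oxoglutarate to oxidise small molecules such as hormones and flavonoids. GDSL and class 3 lipases hydrolyse ester bonds of lipids, and pectinesterase inhibitors block the enzymes that remove methyl groups from wall pectin. CASP-like proteins are membrane proteins related to those that position the Casparian strip in the root endodermis of Arabidopsis, and ABC transporters move substrates across membranes with the energy of ATP. None of these 7 descriptions names a phenylpropanoid enzyme, a MYB factor or a cell cycle protein. A family or domain name alone does not show the pathway of a gene.

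The library totals ran from 12505275 to 19509803 counted reads, with L1 replicate 2 the deepest library and L1 replicate 3 near the low end (12736208 reads). Of the 26505 genes, 20024 passed the filter on low counts and were tested, among them all 8 genes of the set, which passed through L1 alone. Within L1, replicate 3 differed more from the other samples than these from each other: the chi-square per degree of freedom over genes was 27.7 and 37.3 in its pairs and 8.41 between replicates 1 and 2. Pairs within the other groups ran from 8.12 to 40.3, so a distance of this kind was not particular to L1. Levels of leaf and dividing-cell markers were not checked here. They were to be found by description, and the descriptions used cover only 3630 genes, all called in L1 against WT in the study, of which 2633 hold text.

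The regulator of the set, the NAC domain gene Ccrd_017825 (scaffold 42, positions 302652 to 305517 of CcrdV1, 4 exons, 1071 bases of exon), had 31, 39 and 73 counts in the L1 samples. In the other groups it had 0, 0 and 1 count in L18, 0 in each L24 sample, and 0, 0 and 2 counts in WT. It was the only gene of the set with any count in WT. Its level in L1 was 3.02 ± 2.02 FPKM (fragments per kilobase of exon, scaled by library total, SD, n = 3), and the count ratio of L1 to the other 9 samples together was 127, with a 95% exact counting interval of 42.4 to 621. Here and below the ratio is scaled by library size, and its interval covers counting error only, not the spread between samples. The rule chose the genes on these same counts, so a ratio far above 1 was set in advance. Ratio and interval are descriptions and no test.

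The Fe2OG dioxygenase gene Ccrd_014557 (scaffold 107, 214447 to 217588, 3 exons, 1116 bases of exon) was the highest of the set, with 164, 768 and 127 counts in the L1 samples. L18 had 0, 0 and 1 count, L24 had 0, 0 and 3 counts, and the WT samples had 0 each. L1 replicate 2 held most of its reads, and even the lowest L1 sample lay far above every other sample. Its level in L1 was 17.9 ± 15.1 FPKM (SD, n = 3), higher than that of 64.2% of the tested genes, and the count ratio was 703 (274 to 2584).

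Of the lipase genes, the GDSL lipase gene Ccrd_020743 (scaffold 904, 59820 to 62685, 5 exons, 1308 bases of exon) had 65, 60 and 103 counts in L1 and 0 in every one of the other 9 samples. With 3 counts over those 9 samples set in place of 0, its count ratio was 202. Such a ratio carries no interval for counting error or for the spread between L1 samples, and is no lower bound. The level of Ccrd_020743 in L1 was 3.90 ± 2.02 FPKM (SD, n = 3). The class 3 lipase gene Ccrd_020713 (scaffold 1063, 20338 to 21600, 1 exon, 1263 bases) had 32, 46 and 86 counts in L1. It had 1, 0 and 1 count in L18, 0, 1 and 0 in L24, and 0 in each WT sample. Both lipase genes were clear of the other groups in every L1 sample, as the rule asks, and Ccrd_020713 was among those nearest to the limit of 30 counts. The level of Ccrd_020713 in L1 was 2.94 ± 2.08 FPKM (SD, n = 3), and its count ratio was 145 (48.8 to 711).

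The wall gene of the set, the pectinesterase inhibitor gene Ccrd_017163 (scaffold 2195, 29959 to 51312, 2 exons, 909 bases of exon), had 35, 89 and 134 counts in L1 and 0 in all other samples. With 3 counts set in place of 0, its count ratio was 228, and its level in L1 was 6.35 ± 4.70 FPKM (SD, n = 3). Its 2 exons span more of the genome than those of any other gene in the set, and it is the only gene counted on its scaffold.

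Of the membrane protein genes, the CASP-like gene Ccrd_004299 (scaffold 2716, 19316 to 21310, 3 exons, 636 bases of exon) had 60, 47 and 182 counts in L1 and 0 in all other samples. With 3 counts set in place of 0, its count ratio was 256. Its level in L1 was 10.8 ± 10.2 FPKM (SD, n = 3), the second highest of the set. The ABC transporter gene Ccrd_004541 (scaffold 3558, 51207 to 54134, 8 exons, 1920 bases of exon) had 53, 83 and 89 counts in L1. It also had 1 count in each L18 sample and 0, 0 and 3 counts in L24, and 0 in each WT sample. With 6 counts over the other 9 samples it was the least strictly silent gene of the set. Its level in L1 was 2.54 ± 0.978 FPKM (SD, n = 3), the lowest of the 8, and its count ratio was 99.5 (45.0 to 274).

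The remaining gene, Ccrd_015711 (scaffold 127, 132858 to 133742, 3 exons, 716 bases of exon), has no description. It had 35, 39 and 121 counts in L1, 1, 0 and 1 count in L18, 0, 0 and 1 in L24, and 0 in each WT sample. Its level in L1 was 6.40 ± 5.95 FPKM (SD, n = 3) and its count ratio 173 (58.2 to 844).

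**Figure D1:**
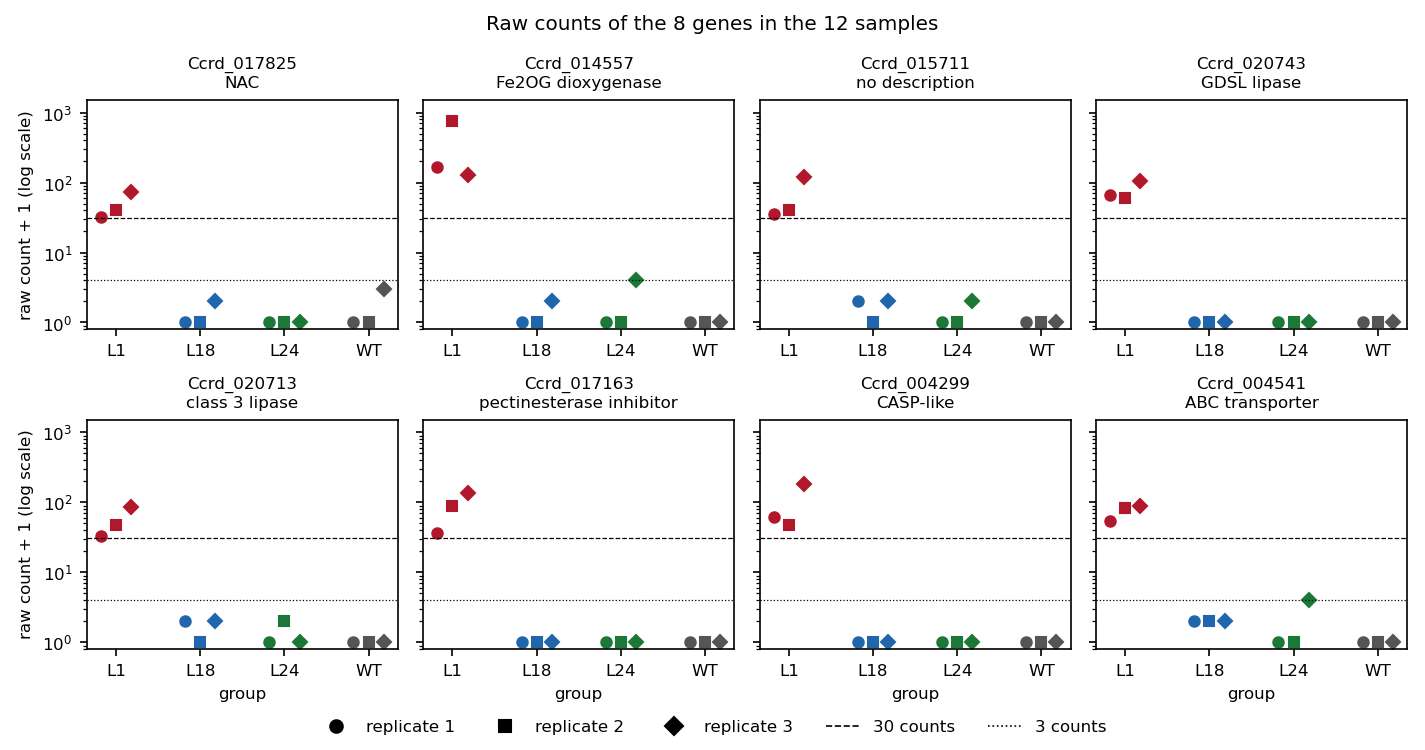
Raw counts of the 8 genes in the 12 samples, one panel per gene, with the group on the horizontal axis and the raw count plus 1 on a log axis. Each point is 1 sample, marked by its replicate number. Every L1 sample lies on or above the dashed line of 30 counts and every other sample on or below the dotted line of 3 counts, as the rule asks.

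Across the set, 3 genes (Ccrd_020743, Ccrd_017163 and Ccrd_004299) had 0 counts in all 9 other samples, and the other 5 had between 3 and 6 counts over those samples. These few counts fell in L18 for all 5 genes, in L24 for 4 of them and in WT for 1. At this depth a gene with 0 counts was not detectable, which does not show that its RNA was absent. By FPKM, which allows genes of different length to be compared, the 8 genes were of low to middle rank in L1: between 21.1% and 64.2% of the tested genes lay below them.

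The replicates of L1 differed widely in these genes. After scaling by library size (TMM), 7 of the 8 genes were highest in L1 replicate 3 and 1, Ccrd_014557, in replicate 2. In those 7 genes replicate 3 lay between 2.06-fold (Ccrd_004541) and 5.15-fold (Ccrd_004299) above the mean of replicates 1 and 2. For Ccrd_004299 the normalized counts were 54.4, 33.8 and 227 in L1 replicates 1, 2 and 3, and for the undescribed Ccrd_015711 they were 31.7, 28.1 and 151. For Ccrd_017825 they were 28.1, 28.1 and 91.1, so replicates 1 and 2 of the NAC gene were almost equal and replicate 3 stood alone. Ccrd_014557 went the other way, with 149, 553 and 159 normalized counts, its replicate 3 at 0.452 times the mean of the others.

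The coefficient of variation between the L1 replicates was between 46.0% (Ccrd_004541) and 101% (Ccrd_004299), with a median of 79.3%, in the 8 genes. The median was 15.5% over 6746 other tested genes in the same range of mean normalized counts in L1. Replicate 3 exceeded the mean of replicates 1 and 2 by at least 2-fold in 7 of the 8 genes and in 2.45% of those 6746 genes. Of the 401 other genes at this level in which every L1 sample lay above every other sample, 42 (10.5%) did so. These shares describe the set and were not tested, since the rule used the same counts. L1 replicate 3 was the shallowest L1 library, and the part of its depth or of its distance from the other L1 samples in this pattern was not tested.

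**Figure D2:**
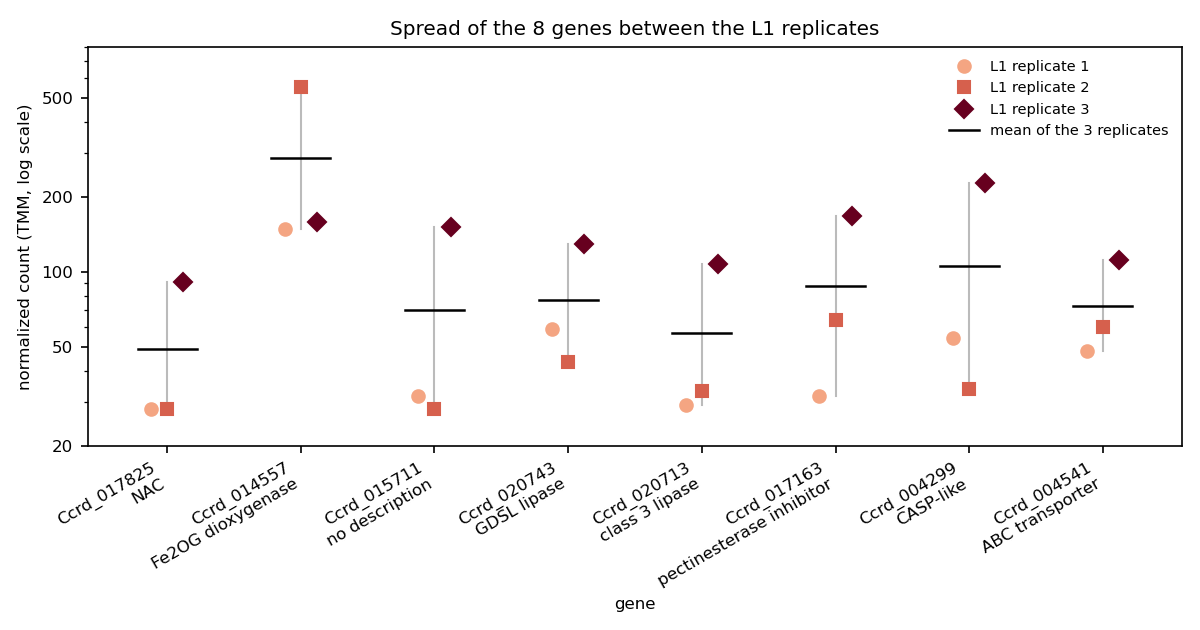
Normalized counts (TMM, log axis) of the 8 genes in the 3 L1 replicates, with the gene on the horizontal axis. Points are replicates, the short black bar is their mean and the grey line joins the lowest and the highest. Replicate 3 is the highest point in 7 genes, and Ccrd_014557 is highest in replicate 2.

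The limits of the rule and the scaling of the counts decide how many genes it takes. With counts scaled by TMM or by DESeq2 size factors, 3 genes were taken, Ccrd_020743, Ccrd_017163 and Ccrd_004299, those with 0 counts in every other sample. Just inside were Ccrd_017825, whose lowest L1 count was 31, Ccrd_020713 (32), and Ccrd_015711 and Ccrd_017163 (35 each). Just outside on the high side were 4 genes that missed a limit by the same factor of 1.25. Ccrd_013923, a gene of the chloramphenicol acetyltransferase-like fold, had 369, 165 and 478 counts in L1 and missed by 1 L24 sample (2, 4 and 1 counts), with 0 in every L18 and WT sample. Ccrd_007151, with a PLAT domain, had 85, 298 and 34 counts in L1 and missed by 1 L18 sample (4, 0 and 0), with 0 in every L24 and WT sample. The glycosyltransferase gene Ccrd_025177 had 38, 68 and 102 counts in L1, against 4, 0 and 1 in L18, 3, 1 and 1 in L24, and 3, 0 and 1 in WT. The undescribed Ccrd_014675 had 24, 33 and 50 counts in L1, and 2 counts in a single L18 sample were all that the other groups held. Ccrd_013923 thus had more counts in L1 than 7 of the 8 genes of the set.

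No gene was at the floor in L1 alone, but 3 came near. The gene Ccrd_013908, with an HTH myb-type domain, the DNA-binding fold of MYB factors, had 2, 4 and 4 counts in L1, against 57, 33 and 27 in L18, 50, 35 and 37 in L24, and 74, 70 and 98 in WT. Ccrd_021581, with no description, had 3, 0 and 2 counts in L1, against 34, 20 and 25 in L18, 52, 36 and 43 in L24, and 112, 156 and 122 in WT. Ccrd_014444, with a pectin methylesterase inhibitor (PMEI) domain, had 1, 6 and 0 counts in L1, against 122, 122 and 94 in L18, 72, 80 and 71 in L24, and 134, 152 and 104 in WT. In all 3 genes the L1 samples lay far below every other sample, as their nearness to the limits implies. In Ccrd_013908 and Ccrd_021581 every L18 and L24 sample also lay below every WT sample in raw counts, so L1 was not the only line below WT. The study lists Ccrd_013908, with AtMYB107 as its putative Arabidopsis counterpart, among the genes lowered in all 3 lines. Ccrd_014444 is described like the member Ccrd_017163 and had the reverse pattern.

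The same limits turned on the other groups took genes in each of them. They took 3 genes high and 2 at the floor in L18 alone, 0 and 3 in L24 alone, and 5 and 6 in WT alone. For L1 the numbers were 8 and 0, the most on the high side, and L1 also holds the deepest library. This order did not hold after scaling by TMM, with 3 and 0 genes in L1, 2 and 2 in L18, 0 and 2 in L24, and 4 and 4 in WT. DESeq2 size factors gave the same numbers as TMM. L1 had 0 genes at the floor under either scaling and without it. These counts rest on 3 replicates a group and were not tested against each other.

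The 8 genes lay on 8 different scaffolds of CcrdV1, so no 2 of them were neighbours. The nearest tested gene on either side on the same scaffold could be taken for 6 of them, 10 neighbours in all. Ccrd_017163 has no other gene on its scaffold, and the 2 genes beside Ccrd_004299 were too low to test. The rule did not use the neighbours' counts. In edgeR's quasi-likelihood test 0 of the 10 neighbours were called in L1 against all of WT, L18 and L24 with one sign, where 7.09% of the 20024 tested genes were (1420 genes). Over the other tested genes of the same scaffolds, neighbours included, 4 of 112 were called so, 2 higher and 2 lower in L1. The median log2 fold change of the 10 neighbours was 0.35 in L1 over WT, 0.34 over L18 and 0.14 over L24, against 0.02, 0.00070 and 0.01 over all tested genes. Of the neighbours, 5 were called in 1 or 2 of the 3 contrasts. The share of all tested genes called in any of the 3 was not counted, so the 5 have no like share beside them. By contrast, Ccrd_014559, Ccrd_015710, Ccrd_015712 and Ccrd_020711 were called over WT, where 39.7% of the tested genes were. Over L18 these were Ccrd_017824, Ccrd_015710 and Ccrd_020711 (33.0% of the tested genes), and over L24 Ccrd_017824 and Ccrd_014559 (20.6%).

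Beside the undescribed Ccrd_015711, the CASP-like gene Ccrd_015710, of the same protein family as the member Ccrd_004299, had 49, 45 and 64 counts in L1, against 20, 12 and 21 in L18, 27, 12 and 33 in L24, and 28, 12 and 12 in WT. Every L1 sample lay above every other sample in raw counts, though not after scaling by library total. It was higher in L1 by a log2 fold change of 1.41 ± 0.49 over WT (SE, adjusted p = 0.033) and 1.61 ± 0.49 over L18 (SE, adjusted p = 0.021), while over L24 it was 1.03 ± 0.47 (SE, adjusted p = 0.15). Without L1 replicate 3 both calls were lost (adjusted p = 0.15 and 0.10). The call over WT was also lost without L1 replicate 1, WT replicate 2 or WT replicate 3 (adjusted p = 0.053, 0.13 and 0.11), and the call over L18 without L18 replicate 1 or 2 (adjusted p = 0.054 and 0.067). On the other side of Ccrd_015711, Ccrd_015712 was higher in L1 than in WT alone (0.61 ± 0.14, SE, adjusted p = 0.0027), and this call held in all 18 alternatives run.

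Beside the class 3 lipase gene Ccrd_020713 lay a second class 3 lipase gene, Ccrd_020711, with 33609 bases and 1 low gene between them. It had 1, 10 and 13 counts in L1, against 0, 0 and 1 in L18, 7, 9 and 11 in L24, and 0 in each WT sample. It was thus read in L1 and in L24 at like counts and was called in L1 against WT (adjusted p = 0.012) and against L18 (adjusted p = 0.024) but not against L24 (adjusted p = 0.83). The call against WT held in all 18 alternatives. That against L18 was lost in 3 of them, without L1 replicate 3 or L18 replicate 1 or 2 (adjusted p = 0.082, 0.080 and 0.068). Its fold changes depend on the prior count of the fit, since WT was at 0, and are no measure of size. Beside the NAC gene, Ccrd_017824 had 203, 254 and 125 counts in L1, against 125, 108 and 105 in L18, 72, 132 and 92 in L24, and 91, 118 and 136 in WT. After scaling it was higher in L1 by 0.69 ± 0.23 over L18 (SE, adjusted p = 0.032) and 0.73 ± 0.23 over L24 (SE, adjusted p = 0.037), and by 0.49 ± 0.23 over WT (SE, adjusted p = 0.10). Leaving out L1 replicate 1 or 2, among other samples, ended both calls (adjusted p between 0.083 and 0.10).

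Beside the Fe2OG gene, Ccrd_014559 was lower in L1, with 1095, 1376 and 815 counts in L1, against 1335, 1570 and 1161 in L18, 1339, 1667 and 1446 in L24, and 1242, 1306 and 1224 in WT. Its log2 fold change was -0.45 ± 0.17 over WT (SE, adjusted p = 0.044), -0.65 ± 0.17 over L24 (SE, adjusted p = 0.013) and -0.39 ± 0.17 over L18 (SE, adjusted p = 0.090). The call against WT was lost in 8 of 18 alternatives, among them those without any 1 of the L1 samples or any 1 of the WT samples (adjusted p up to 0.14), and the call against L24 in 1 of 18, without L24 replicate 2 (adjusted p = 0.052). Without L18 replicate 3 it was called against all 3 groups (adjusted p = 0.036, 0.043 and 0.010), and was then the 1 neighbour of 10 called with one sign. It was lower in L1, where its neighbour Ccrd_014557 was high. Ccrd_014556, on the other side of the Fe2OG gene, was called in none of the L1 contrasts. It had 546, 814 and 681 counts in L24, against 420, 335 and 549 in L18, and was called between these lines (0.80 ± 0.21, SE, adjusted p = 0.011), as were 30.7% of the tested genes.

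In windows of 100 tested genes (log2 CPM 3 or more on average) along the gene numbers around each of the 8 genes, chosen after the neighbours were seen, the median log2 fold change was between -0.32 and 0.21 in L1 over WT, between -0.13 and 0.17 over L18 and between -0.14 and 0.26 over L24.

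**Figure D3:**
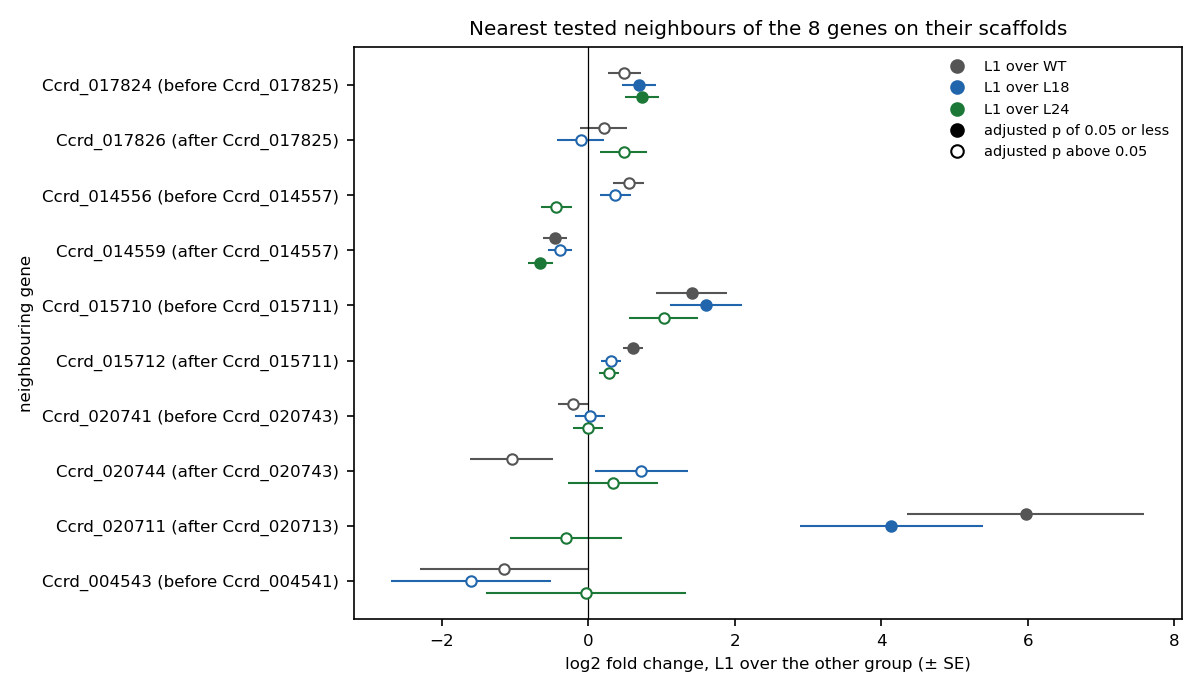
Log2 fold changes (horizontal axis, with the standard error as a bar) of the 10 nearest tested neighbours in L1 over WT, L18 and L24. Filled points had an adjusted p of 0.05 or less in edgeR's quasi-likelihood test and open points did not. No row has 3 filled points, and Ccrd_020711, at 0 counts in WT, has the widest bars.

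Other genes with the descriptions of the 7 described genes were then looked up in the same list, 101 in all. The list was chosen by the study on L1 against WT in these samples and was at hand only in part, in a shortened copy whose tested genes all differed between L1 and WT by at least 1.11 on the log2 scale (absolute value), and the families were chosen after the 8 genes were seen, so the counts below are no independent evidence of a direction. Every L1 sample lay above every other sample after scaling by library total in 31 of the 101 (30.7%), beside 20.1% of the 3629 listed genes that were tested and 6.89% of all tested genes. Called against all 3 groups with one sign were 30 of the 101 higher and 5 lower in L1. Of the 3629 listed genes 15.4% were called higher and 9.73% lower in this way, and of all tested genes 3.84% and 3.26%. The share above all other samples was 6 of 10 for ABC transporters, 5 of 9 for pectinesterase inhibitors and PMEI genes, 9 of 25 for Fe2OG dioxygenases, 4 of 17 for CASP-like genes, 2 of 10 for GDSL lipases, 1 of 5 for class 3 lipases and 4 of 25 for NAC genes. Against WT alone, the contrast that chose the list, every family held genes called higher and genes called lower in L1. Higher and lower were 8 and 2 ABC transporters, 6 and 3 pectinesterase inhibitors and PMEI genes, and 21 and 4 Fe2OG dioxygenases. They were 11 and 5 CASP-like genes, 3 and 7 GDSL lipases, 3 and 2 class 3 lipases, and 14 and 11 NAC genes. The split over all listed genes is not given here.

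Among the ABC transporter genes, Ccrd_004534 came closest to a member in its contrast with WT. It had 720, 1033 and 1059 counts in L1, against 32, 25 and 9 in L18, 10, 3 and 12 in L24, and 0 in each WT sample. Its number is 7 away from that of the member Ccrd_004541, but it lies on another scaffold (2962). Its level was 67.5 ± 21.9 FPKM in L1 (SD, n = 3), and its mean was 1.56 FPKM in L18 and 0.685 FPKM in L24. Ccrd_021217, likewise an ABC transporter gene, had 592, 1116 and 1103 counts in L1, against 104, 67 and 41 in L18, 6, 7 and 9 in L24, and 0, 2 and 3 in WT. Both were thus much more strongly read in L1 than the member itself and were also read in L18. The ABC transporter gene Ccrd_014737 went the other way, with 35, 47 and 14 counts in L1, against 298, 187 and 173 in L18, 311, 70 and 159 in L24, and 186, 169 and 184 in WT.

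The Fe2OG gene Ccrd_014629, 72 gene numbers from the member Ccrd_014557 but on scaffold 565, had 328, 434 and 400 counts in L1, against 22, 10 and 4 in L18, 0, 3 and 10 in L24, and 0 in each WT sample. Its L1 replicates lay closer together than those of the member, at 20.3 ± 4.65 FPKM against 17.9 ± 15.1 FPKM (SD, n = 3). They were not as close as the unscaled counts read: after scaling by library total, replicate 3 was its highest L1 sample. The Fe2OG gene Ccrd_021915 had 358, 750 and 169 counts in L1, with replicate 2 highest as in the member, against 22, 11 and 55 in L18, 0, 0 and 1 in L24, and 66, 66 and 43 in WT. The GDSL lipase gene Ccrd_022793 had 116, 135 and 168 counts in L1, against 17, 5 and 2 in L18, 1, 3 and 4 in L24, and 0 in each WT sample. The GDSL lipase gene Ccrd_022620 had the reverse pattern, with 8, 28 and 10 counts in L1, against 2460, 775 and 732 in L18, 613, 156 and 594 in L24, and 315, 577 and 461 in WT.

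Among the CASP-like genes, Ccrd_008164 was the most strongly read, with 5857, 6450 and 5620 counts in L1, against 1253, 1141 and 1085 in L18, 1454, 1190 and 1205 in L24, and 361, 268 and 285 in WT. In that gene L1 lay above the other lines, and those lines above WT. The pectinesterase inhibitor gene Ccrd_008818 had 26, 11 and 25 counts in L1, against 0 in each L18 sample, 0, 1 and 1 in L24, and 0 in each WT sample, a pattern like that of the member at lower depth. The other 4 genes of that family in which L1 lay above all other samples had at least 2 counts in each of those samples. The NAC gene Ccrd_012505 had 12, 14 and 14 counts in L1 and a single count, in L24, in all other samples.

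**Figure D4:**
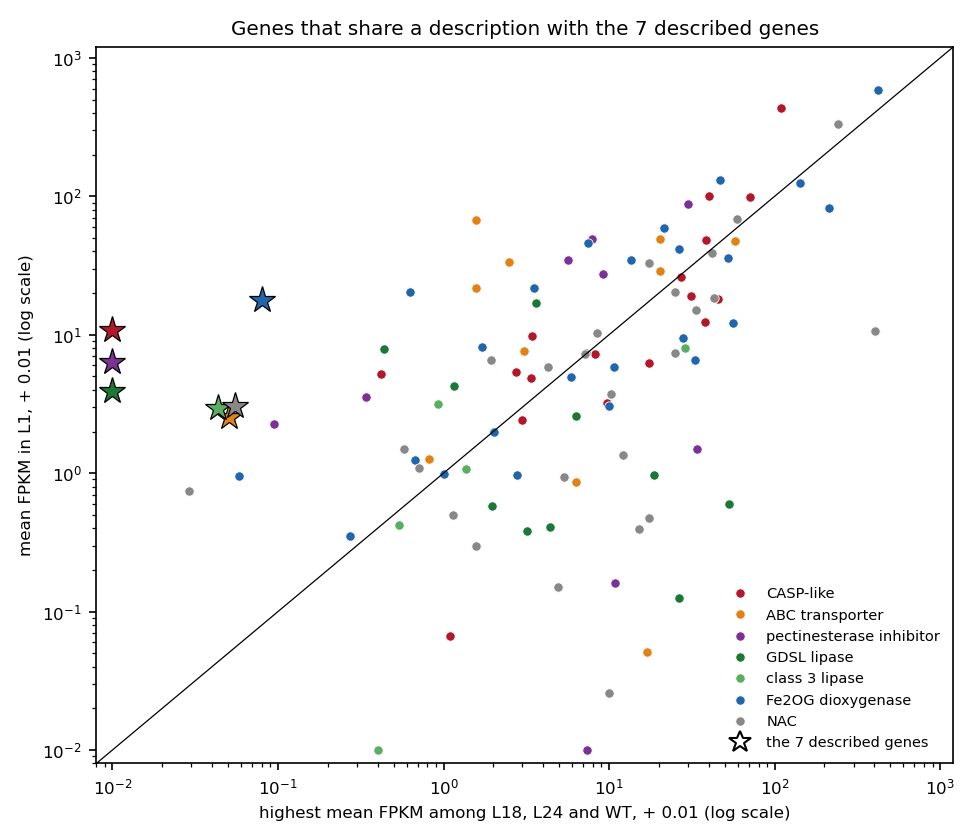
Mean FPKM in L1 (vertical axis) against the highest mean FPKM among L18, L24 and WT (horizontal axis), both plus 0.01 and on log axes. Circles are the 101 genes that share a description with a gene of the set, coloured by family, and stars are the 7 described genes of the set. The line marks equal levels. The stars lie at the left edge, below 0.1 FPKM outside L1, and few circles come near them.

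By keyword, the descriptions of the 8 genes held 2 lipid genes, 1 transporter, 1 transcription factor, 1 cell wall gene, which is also the 1 protease or inhibitor gene, and 1 oxidoreductase. These keywords were found in 1.54%, 2.09%, 5.26%, 1.60%, 1.82% and 2.75% of the 3630 listed genes. Of the listed genes 35.6% were uncharacterized or had no description, as was 1 of the 8 genes. The set held 0 genes of cytochromes P450 (1.63% of the listed genes), glycosyltransferases (0.854%), peroxidases (1.10%), resistance proteins (0.992%), protein kinases (3.64%), F-box proteins (0.0826%) and retroelements (0.0275%). With 8 genes, 0, 1 or 2 of a kind say nothing of the kind as a whole.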

How the data were processed

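RNA of 12 callus samples, 3 each of L1, L18, L24 and WT, was analysed. The authors trimmed reads with BBDuk (minimum length 35, quality 35) and aligned them to CcrdV1 with STAR. The counting tool and strand setting are not given in the sources used here, so reads of overlapping or near-identical genes may be misassigned. The deposited counts are whole reads per gene with no normalization, and exon length is a deposited column of other numbers. The deposited FPKM values were scaled by the authors by exon length and library total, and recomputed values equalled all 251286 compared (relative tolerance 1e-09).

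The rule was applied to raw counts. Members, families and lists were chosen with earlier results of these data known. For the other tests, 1 model was fitted to all samples with edgeR 4.0.16 (TMM, quasi-likelihood F test, Benjamini-Hochberg at 0.05) in R 4.3.3 with limma 3.58.1, and standard errors were taken as the log2 fold change over the square root of F. Genes were kept above 10.5 normalized counts in at least 1 sample, where the mean Jaccard index between replicates, smoothed by loess (span 0.3), was largest (0.961). For the count ratios, a sum of 0 counts over the other samples was replaced by 3. Named were all members with a description and the undescribed one, the genes nearest the limits, and, chosen after their values were seen, neighbours called in any contrast and relatives. Alternatives were other limits of the rule, other scalings and filters, DESeq2 1.42.0, a replicate block, fits of only the groups compared, and each sample left out. The fit was tested on simulated data of 20024 genes, of which 200 were changed 4-fold in L1: 191 were called with the right sign in L1 against WT and 10 unchanged genes were called. The simulation gave all genes the same relative spread between replicates. It therefore does not speak for smaller changes, for genes of wider spread or for an outlying replicate. Intervals, files and plots used Python 3.11.15, pandas 2.3.3, numpy 2.4.6, scipy 1.17.1 and matplotlib 3.10.9. Descriptions came from a shortened copy of the study's list of genes called in L1 against WT, which holds 3630 of them, so families and shares of listed genes cover that part only. Same-numbered samples deviated together in L24 and WT (correlations 0.457, 0.138 and 0.182) but not in every pair of any other 2 groups. Sequences, near-identical copies and promoters were not analysed here.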

Additional observations from a re-analysis of the deposited data

Results flagged for a closer look

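Each value below is a difference between lines in the effect against WT, by edgeR's quasi-likelihood test of that difference over all tested genes, for a nearest neighbour of a gene high in L1 alone. Ccrd_017824, beside the NAC gene, was higher in L1 than in L18 by 0.69 (log2, adjusted p = 0.032) and higher than in L24 by 0.73 (adjusted p = 0.037). Ccrd_014556, on the other side of the Fe2OG gene from Ccrd_014559, was higher in L24 than in L18 by 0.80 (adjusted p = 0.011). Ccrd_014559 was lower in L1 than in L24, with a log2 difference of -0.65 (adjusted p = 0.013). The CASP-like gene Ccrd_015710 was higher in L1 than in L18 by 1.61 (adjusted p = 0.021). The class 3 lipase gene Ccrd_020711 had a fitted log2 difference of 4.14 in L1 over L18 (adjusted p = 0.024) and of 4.44 in L24 over L18 (adjusted p = 0.016), both resting on 1 count in the 3 L18 samples. No rule for single outlying values was applied to groups of 3 samples.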

How the results depend on the processing

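Limits of 20 and 5 counts gave 14 genes high and 2 at the floor (Ccrd_021581, Ccrd_013908) in L1 alone, and limits of 50 and 1 gave 1 high (Ccrd_020743). With counts scaled by TMM or by DESeq2 size factors, 3 genes were high (Ccrd_020743, Ccrd_017163 and Ccrd_004299). Limits of 10 and 3, chosen after seeing the data, gave 21 and 2. Leaving out 1 sample at a time, which relaxes the rule and can remove no gene from the set, gave 8 to 10 genes high and 0 to 1 at the floor, which was Ccrd_014444 without L1 replicate 2 and Ccrd_004859 without L24 replicate 2. Keeping the gene numbers the rule leaves out gave 8 and 0.

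Neighbours called in L1 against all 3 groups with one sign were 0 to 1 when 1 sample was left out, and 0 otherwise. Over all genes this count was 922 to 1376 with 1 sample left out, the 922 without L1 replicate 3, against 1420 in the full data. Single-sample removal gave 3558 to 5349 genes called in L18 against WT (5056 in the full data), 6306 to 8422 in L24 against WT (8000) and 4456 to 6387 in L24 against L18 (6143). For 9 called values of named neighbours, 130 of 162 values under the alternatives kept the call, 32 lost it and 0 changed sign. Of 18 same-numbered pairs, 6 had a correlation of deviations above 0.1 (range -0.345 to 0.457), among them all 3 of L24 and WT, a comparison that names no gene here, and not all 3 of any other groups. With the replicate block, 0 neighbours and 1285 genes were called in L1 against all 3 groups, and 4737, 7687 and 5779 genes in L18 against WT, L24 against WT and L24 against L18.

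Contrasts among L18, L24 and WT over genes at the floor in L1 were not run, since there were 0 such genes. Copies and promoter motifs were not run, for want of sequences here. Depth limits the set, since a gene under 30 counts in any L1 sample could not enter it.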
